A study of Mus musculus with 9 samples.

Results

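Semaphorins are secreted or membrane-bound guidance ligands, plexins are their main receptors, and neuropilins are co-receptors that pair with plexins. The pathway is known for steering axons and vessels in development and for cell contacts between immune cells in adults. Plexins carry a domain that switches off small Ras-family GTPases inside the cell, and their activation loosens adhesion and reshapes actin. The 10 genes described here are 5 semaphorins (Sema6d, Sema4a, Sema4b, Sema4c and Sema4d), 3 plexins (Plxna1, Plxnb2 and Plxnc1) and both neuropilins (Nrp1 and Nrp2). They were chosen by name, with earlier results of these libraries known, among them the lower level of Sema6d in old microglia. All 10 are in the deposited table of 22036 genes, and all 10 were among the 14955 genes that passed the filter on low values.

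The RNA is from flow-sorted microglia, the macrophages that live in brain tissue, of female wild-type C57BL/6 mice. Young mice were aged 6 months, middle-aged mice 15 months and old mice 23 months. There were 3 libraries at every age, made from pools of 3 mice, so errors given here are between pools of animals. All groups carry the same genotype and no treatment is given in the labels.

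The deposited values are on the log2 scale of normalized counts, with no read totals, which leaves the depth unknown. The labelled cell type was checked on 8 microglia markers in the table. Their summed level was 20.51 to 20.71 in young, 20.24 to 20.45 in middle-aged and 20.15 to 20.42 in old libraries. Markers of other cells were high too. The sum of 10 neutrophil markers was 17.57 to 18.23 in young, 18.04 to 19.04 in middle-aged and 17.29 to 18.22 in old libraries. The neutrophil gene Ltf had a mean of 16.54, above the microglia marker Tmem119 at 15.41. Levels given here are those of the sorted RNA, and the part of other cells in them was not tested. Old replicate 3 stood apart from the other libraries along the first principal component, at 29.9, while the other 8 lay between -14.4 and 5.9. Old minus young differences of the named genes that moved by over 1.5 times without it are given with and without it.

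Sema6d is the gene that stands out in age, so its promoters are shown. Sema6d lies on chromosome 2 at 124089969 to 124667770 on the plus strand of GRCm38. RefSeq lists 2 start sites for it on GRCm38.p6, 563.6 kb apart. The windows run from 250 bases before to 50 bases after each start and capitals mark CG dinucleotides. The first window is chr2:124089719-124090018 and the second is chr2:124653331-124653630, both on the plus strand.
Sema6d, first start: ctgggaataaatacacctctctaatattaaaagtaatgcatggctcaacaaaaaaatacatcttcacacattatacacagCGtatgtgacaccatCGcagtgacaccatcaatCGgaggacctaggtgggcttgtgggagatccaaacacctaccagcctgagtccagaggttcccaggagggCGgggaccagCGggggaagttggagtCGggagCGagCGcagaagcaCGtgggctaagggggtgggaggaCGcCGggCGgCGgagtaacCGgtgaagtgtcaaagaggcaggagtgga
Sema6d, second start: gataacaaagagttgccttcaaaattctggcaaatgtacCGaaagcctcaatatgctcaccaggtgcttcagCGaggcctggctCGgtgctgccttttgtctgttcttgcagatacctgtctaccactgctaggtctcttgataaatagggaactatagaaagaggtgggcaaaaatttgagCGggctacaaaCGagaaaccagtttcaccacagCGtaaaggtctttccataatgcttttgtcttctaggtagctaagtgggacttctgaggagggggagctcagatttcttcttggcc
The first window holds 14 CG dinucleotides and the second 6, where the median of 32851 promoter windows is 7. The table of promoters held 18 windows for 9 of the 10 genes, with 2 to 37 CG dinucleotides each. The letters GAGGAAGT, a motif bound by the macrophage factor PU.1, were searched on both strands. They were found in 0 of these 18 windows and in 3.2% of all windows. The AP-1 motif TGAGTCA, also searched on both strands, was found in 1 of the 18, at Sema4c, and in 5.2% of all windows. Which start is used in these libraries was not measured.

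The level of the 10 genes spanned a wide range. Per kb of exon, Sema4d, a membrane-bound ligand that can be shed from immune cells, was the highest, at a mean over 9 libraries of 12.19 on the log2 scale (SD 0.16). Plxnb2, a receptor for class 4 semaphorins, followed at 10.93 (SD 0.23), and Nrp1, which binds class 3 semaphorins and VEGF, at 10.70 (SD 0.18). Sema4a lay at 7.41 (SD 0.24), Plxnc1, the receptor of Sema7a, at 6.63 (SD 0.15), Nrp2 at 6.56 (SD 0.15) and Sema4b at 6.42 (SD 0.20). Sema6d lay at 5.69 (SD 0.31) and Sema4c at 4.89 (SD 0.10). Plxna1, a known receptor of Sema6d, was the lowest at 2.24 (SD 0.08). The ranges over libraries overlapped between Plxnb2 and Nrp1, between Plxnc1 and Nrp2, and between Nrp2 and Sema4b. The other neighbours in this order did not overlap. With the longest coding transcript as the length, Nrp1 stood above Plxnb2 (12.14 and 11.18 on the log2 scale per kb), and Nrp2 and Sema4b stood above Plxnc1, with the other ranks as before.

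**Figure D1:**
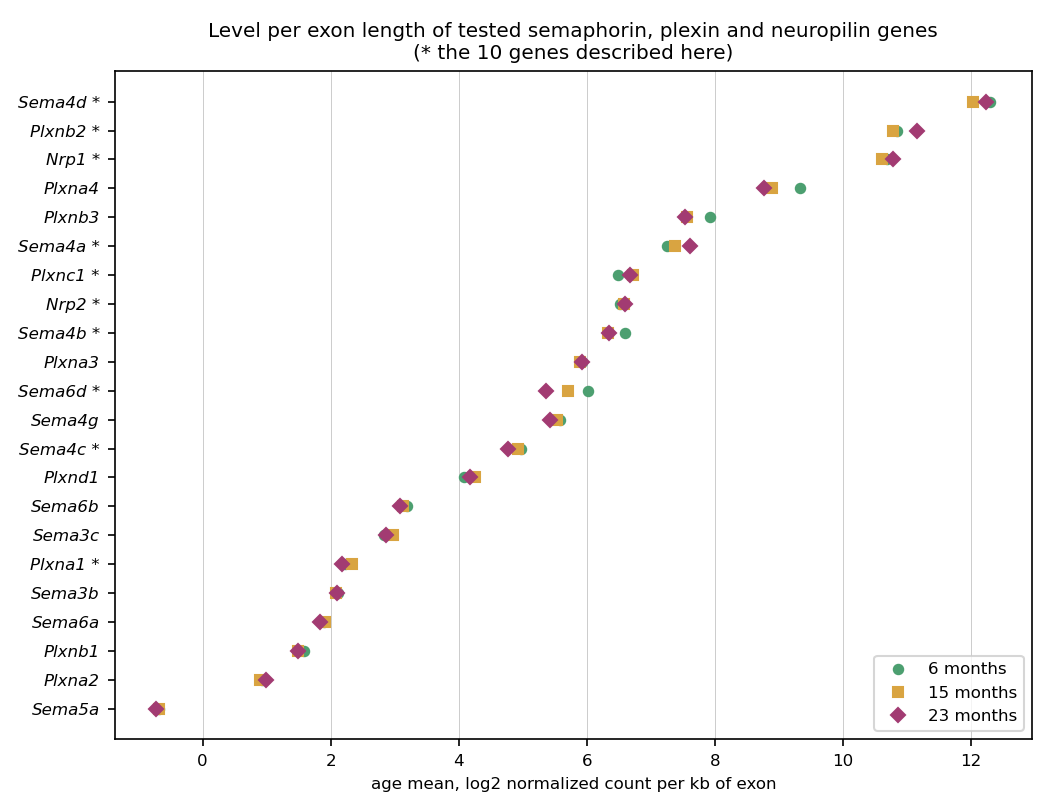
Mean level at each age, as log2 normalized count per kb of exon, for the 22 tested genes of the 3 families, with the 10 genes described here marked by a star. Sema4d, Plxnb2 and Nrp1 are at the top, Plxna4 and Plxnb3 are next, and Plxna1 is the lowest of the starred genes. Circles, squares and diamonds are the 3 ages.

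The families were listed as 20 semaphorins, 9 plexins and 2 neuropilins, and 11, 9 and 2 of them passed the filter on low values. The 9 semaphorins below it were Sema3a, Sema3d, Sema3e, Sema3f, Sema3g, Sema4f, Sema5b, Sema6c and Sema7a. Their values lay between -1.50 and 3.00 on the log2 scale. Sema3b and Sema3c were the class 3 semaphorins above the filter, the secreted ligands of the neuropilins, and both neuropilins were above it. Sema3b had nearly the same low value, 4.30, in young replicate 2 and old replicates 1 and 2. Passing the filter thus does not show that it was detected. Sema7a, the ligand of Plxnc1, was below it too.

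Sema6d, a transmembrane ligand that can also signal back into the cell that carries it, was lower in each older group. In log2 units its values were 9.53, 9.36 and 9.36 in young libraries 1, 2 and 3. They were 9.06, 8.96 and 9.33 in middle-aged libraries and 8.82, 8.77 and 8.68 in old ones. No pair of ages overlapped, although middle-aged replicate 3 (9.33) came close to the lowest young library. The old mean was 8.76 ± 0.07 and the young mean 9.41 ± 0.10 (SD, n = 3 each). The old minus young log2 difference was -0.66 ± 0.12 (SE), so that, on the scale of the deposited values, the level in old libraries was 0.634 of that in young ones. The middle-aged minus young difference was -0.30 ± 0.12 and the old minus middle-aged difference was -0.36 ± 0.12. Because this gene was named for being lower in old microglia, these are descriptions and not tests.

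**Figure D2:**
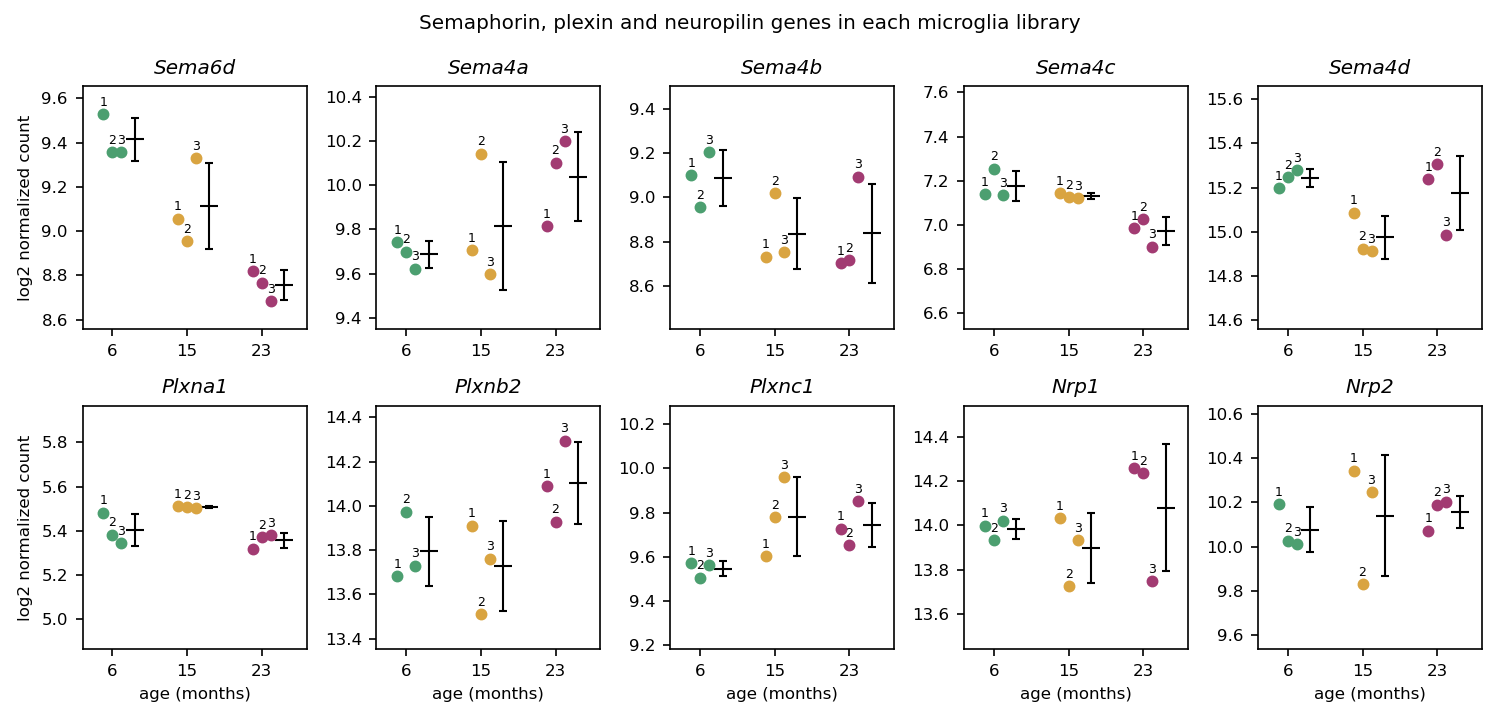
Log2 normalized count of the 10 genes in each library against age in months, with library numbers above the points and the mean ± SD in black beside each age. All panels span the same 1.1 log2 units around their own centre. Sema6d is the panel in which the 3 ages stand in separate steps, and in Nrp1 old replicate 3 (13.75) lies below the other old libraries (14.26 and 14.24).

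In old against young libraries, 1 of the 10 genes was called, Sema6d, where 2.00% of all tested genes were called in either direction and 0.301% were called lower (limma moderated test, Benjamini-Hochberg adjusted p under 0.05). As Sema6d was chosen on this comparison, nothing is read from that count. Without old replicate 3 its difference was -0.62 and it was not called. It was also not called without young replicate 1, 2 or 3, where the differences were -0.60, -0.69 and -0.69. The authors' deposited table gives Sema6d a log2 fold change of -1.23 for old against young, with a test score of -6.61, the lowest of the 21273 genes in that table. In that comparison the authors' deposited table called 7.62% of its genes with an adjusted p, and 2.90% were called lower. In the authors' deposited tables the fold changes were -0.40 for middle-aged against young and -0.49 for old against middle-aged, neither called there.

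Markers of microglia and of other cell types differed between old and young libraries beside Sema6d, some lists lower and some higher. Of 10 markers of border macrophages, the macrophages of meninges and vessels, 8 were lower in every old than in every young library, 1 was higher and 2 were called lower (limma, adjusted p under 0.05). Their median log2 difference was -0.46, and their summed level was 16.39 to 16.74 in old against 17.00 to 17.08 in young libraries. All 10 of these markers were above the filter, with Mrc1 at a mean of 14.24. Among 9 dendritic cell markers 2 were called lower, Cd209a and Siglech, the second of which microglia also express. The median difference of the 9 was 0.00. Their sum was 15.90 to 16.11 in old and 16.38 to 16.50 in young libraries, and Siglech, at a mean of 15.96, was its most abundant gene. Of 8 microglia markers 2 were called lower, Siglech and Fcrls. In all, 5 of the 8 were lower in every old than in every young library and 1 was higher. Their median difference was -0.26, and their sum was 20.15 to 20.42 in old and 20.51 to 20.71 in young libraries. Of 8 monocyte markers 2 were called higher, Plac8 and Ms4a4c, with a list median of 0.40 and a sum of 14.86 to 15.74 in old and 14.69 to 15.18 in young libraries. Of 9 T and NK cell markers 1 was called higher, Cd8a, and 6 were higher in every old than in every young library, with a median of 0.17. Cd4 was the 1 lower in every old library, with a difference of -0.62 ± 0.20, and -0.32 without old replicate 3, and was not called. No marker of astrocytes, neurons, the oligodendrocyte lineage, neutrophils, or pericytes and smooth muscle was called. The astrocyte sum was 14.03 to 14.18 in old and 14.34 to 14.43 in young libraries, with Slc1a3, at a mean of 14.07, its most abundant gene. The neuron sum was 8.550 to 8.648 in old and 8.652 to 8.747 in young libraries. The sums of the other lists without a call overlapped. Over all tested genes, old and young libraries did not overlap for 24.5%. Without old replicate 3, limma called none of Plac8, Ms4a4c, Cd8a, Stab1, Mgl2, Cd209a, Siglech and Fcrls. In sorted bulk RNA, fewer cells of a type and less RNA per cell cannot be told apart, and the part of these cell types in the Sema6d difference was not tested.

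By root mean square difference of values around their own means over 9 libraries, the genes closest to Sema6d among 10759 compared were Bank1 at 0.0655, Tnfrsf17 at 0.0821, Med12l at 0.0863, Slc16a6 at 0.0876 and Armh3 at 0.0975. The median over all compared genes was 0.319. Bank1 had log2 values of 11.38, 11.41 and 11.14 in old libraries, and its lowest young library was at 11.91. Its middle-aged values were 11.53, 11.59 and 11.86, so that replicate 3 was the highest of that age, as with Sema6d. No pair of ages overlapped for Bank1.

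**Figure D3:**
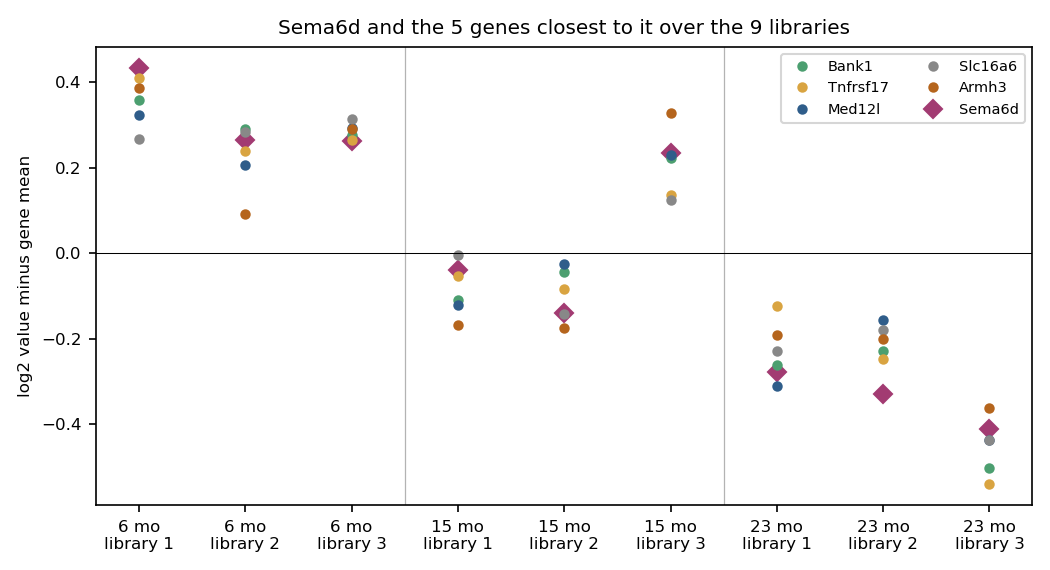
Log2 value minus the gene's own mean in each of the 9 libraries for Sema6d (diamonds) and the 5 genes closest to it (circles). The young libraries lie above 0 and the old ones below it for all 6 genes, and middle-aged replicate 3 lies above the other middle-aged libraries. The 5 genes were picked for this closeness, so the likeness is built in.

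The class 4 ligands did not share 1 direction. Sema4a, which is known to act on T cells and lies on chromosome 3 at 88435959 to 88461182 on the minus strand of GRCm38, had log2 values of 9.74, 9.70 and 9.62 in young, 9.71, 10.14 and 9.60 in middle-aged and 9.82, 10.10 and 10.20 in old libraries. Every old library was above every young one, while middle-aged replicate 2 was as high as the old ones. That replicate was also the middle-aged library highest in every listed monocyte and neutrophil marker, such as Plac8 (12.06, against 11.40 and 11.47) and S100a8 (16.82, against 15.63 and 15.67). In old against young libraries the median log2 difference was 0.40 for the monocyte and 0.03 for the neutrophil markers. The part of these cells in the Sema4a values was not tested. Old libraries were higher than young ones by 0.35 ± 0.15 on the log2 scale (SE, n = 3 each; 95% interval 0.02 to 0.69), the largest size of the 10 genes after Sema6d, and the gene was not called.

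Sema4c, a ligand of Plxnb2, was the other gene lower in every old than in every young library. It lies on chromosome 1 at 36548639 to 36558349 on the minus strand. Its values were 7.14, 7.26 and 7.13 in young, 7.15, 7.13 and 7.12 in middle-aged and 6.98, 7.03 and 6.90 in old libraries. The young and middle-aged libraries lay together and the old ones below both. Old libraries differed by -0.21 ± 0.07 from young ones, and the old minus middle-aged difference was -0.16 ± 0.07, neither called. The authors' deposited table gives -0.58 for old against young, also not called. An exon of D430040D24Rik on the opposite strand shares 334 bases with Sema4c, and no source states whether reads were counted by strand.

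Sema4b lies on chromosome 7 at 80186841 to 80226527 on the plus strand. It had an old minus young difference of -0.25 ± 0.14 and a middle-aged minus young difference of the same size, -0.25 ± 0.14. Old replicate 3, at 9.09, lay within the young range of 8.96 to 9.21, and old replicates 1 and 2 lay below it at 8.70 and 8.72. Without old replicate 3 the old minus young difference was -0.38.

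Sema4d, on chromosome 13 at 51685529 to 51793747 on the minus strand, was lowest at the middle age. Its values were 15.20, 15.25 and 15.28 in young, 15.09, 14.92 and 14.91 in middle-aged and 15.24, 15.31 and 14.99 in old libraries. Middle-aged libraries were below all young ones, with a difference of -0.27 ± 0.10, and the old libraries overlapped both ages. The authors' deposited table calls Sema4d lower in middle-aged against young libraries, with a log2 fold change of -0.33, and 2.53% of the genes with an adjusted p in that table were called lower. Old and young libraries differed by -0.07 ± 0.10 with old replicate 3 and by 0.03 without it.

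Among the receptors, Plxnb2 had its highest mean in old libraries. It lies on chromosome 15 at 89155549 to 89180788 on the minus strand. Its values were 13.68, 13.97 and 13.73 in young, 13.91, 13.51 and 13.76 in middle-aged and 14.09, 13.93 and 14.29 in old libraries. Old libraries were all above the middle-aged ones, by 0.38 ± 0.13 on the log2 scale, and old replicate 2 lay just below young replicate 2. The old minus young difference was 0.31 ± 0.13 (95% interval 0.02 to 0.60) and 0.21 without old replicate 3, and it was not called.

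Plxnc1 was higher in both older groups than in any young library. It lies on chromosome 10 at 94790866 to 94944835 on the minus strand. Its values were 9.57, 9.51 and 9.56 in young, 9.60, 9.78 and 9.96 in middle-aged and 9.73, 9.65 and 9.85 in old libraries. The older groups overlapped each other. Old libraries differed by 0.20 ± 0.11 from young ones and the middle-aged minus young difference 0.24 ± 0.11, and neither was called.

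Plxna1 was lower in old than in middle-aged libraries and overlapped between old and young ones. It lies on chromosome 6 at 89316314 to 89362620 on the minus strand. In mouse dendritic cells and osteoclasts it is known to bind Sema6d and to work with Trem2 and its adaptor Tyrobp. Its values were 5.48, 5.38 and 5.35 in young, 5.51, 5.51 and 5.50 in middle-aged and 5.32, 5.37 and 5.38 in old libraries. The middle-aged libraries were the highest, and the old minus middle-aged difference was -0.15 ± 0.05. Old and young libraries differed by -0.05 ± 0.05 (95% interval -0.15 to 0.06). An exon of the antisense gene Gm26811 shares 854 bases with Plxna1, so reads of both cannot be told apart without strand.

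Both neuropilins overlapped between all pairs of ages. Nrp1 lies on chromosome 8 at 128358604 to 128503363 and Nrp2 on chromosome 1 at 62703285 to 62818695, both on the plus strand. Nrp1 had values of 14.00, 13.93 and 14.02 in young, 14.03, 13.72 and 13.93 in middle-aged and 14.26, 14.24 and 13.75 in old libraries. Old replicates 1 and 2 lay above all young libraries and old replicate 3 below them. The old minus young difference was 0.10 ± 0.14 with old replicate 3 and 0.26 without it, and was not called either way. Nrp2 ranged from 9.83 to 10.34, both in middle-aged libraries, and its old minus young difference was 0.08 ± 0.13 (95% interval -0.22 to 0.38).

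**Figure D4:**
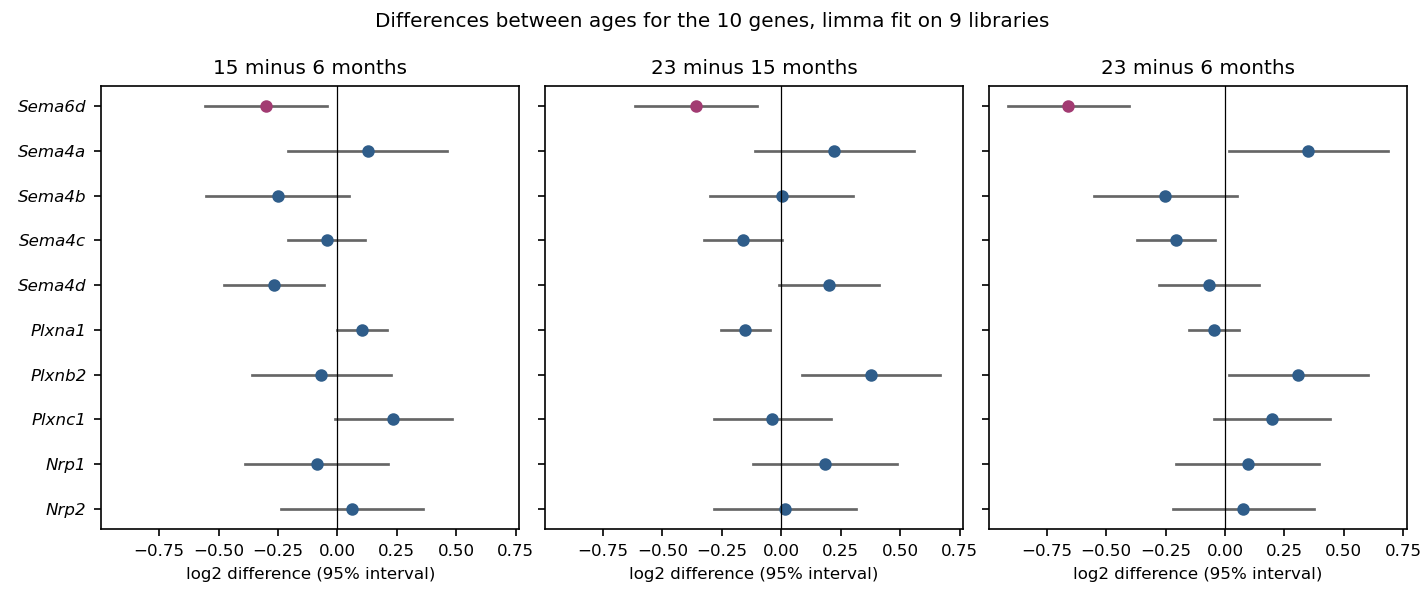
Log2 difference with its unadjusted 95% interval for each of the 10 genes and each pair of ages, from the limma fit on 9 libraries. Sema6d is the only gene of the 10 whose interval lies to the same side of 0 in all 3 panels, and its old minus young interval runs from -0.91 to -0.40.

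Over the 10 genes, the old minus young median was 0.02 with 5 higher and 5 lower, and the median of all tested genes was -0.01. Groups did not overlap for 4 of the 10 genes in old against young, for 4 in middle-aged against young and for 4 in old against middle-aged libraries. The shares of all tested genes without overlap were 24.5%, 21.6% and 12.9%. In middle-aged against young libraries limma called 0 of the 10, where 0.114% of all tested genes were called. At an unadjusted p under 0.05 there were 2 of the 10, where 11.4% of all tested genes passed. The authors' deposited table called 1 of the 10, Sema4d, where it called 5.78% of its genes. In old against middle-aged libraries limma called 0 of the 10, where 0.174% of all tested genes were called. At an unadjusted p under 0.05 there were 3, where 10.2% of all tested genes passed. The authors' deposited table called 0, where it called 1.32% of its genes. In old against young libraries 4 of the 10 had an unadjusted p under 0.05, where 16.8% of all tested genes did. These comparisons share libraries pairwise, and the genes were chosen with results of old against young known, so nothing is read from these counts.

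Partners of the pathway were taken from lists that leave out the 10 genes. Of 13 tested partner receptors and other ligands, 3 were called higher and 0 lower in old against young libraries (limma, adjusted p under 0.05). Among all tested genes 1.70% were called higher and 0.301% lower. The lists were chosen with earlier results of these data known, so nothing is read from this count. The median log2 difference of the 13 was 0.14, against -0.01 for all tested genes. Flt1, a VEGF receptor that shares its ligands with neuropilin complexes, had log2 values of 9.86, 9.65 and 10.11 in old libraries, against 8.45, 8.54 and 8.75 in young ones. It rose 2.45-fold on the scale of the deposited values (log2 1.29 ± 0.14 SE, n = 3 each; limma, Benjamini-Hochberg adjusted p = 0.00103), and every old library was above every young one. Flt1 is also an endothelial marker. Of the 10 endothelial markers it was the 1 called. Their summed level, which includes Flt1, was 11.96 to 12.16 in old and 12.04 to 12.20 in young libraries. Pecam1, at a mean of 11.22 the most abundant of them, was lower in every old than in every young library (-0.40 ± 0.12, not called). Of the 10, Pecam1 was the 1 lower in this way and 2 were higher, Flt1 among them. The part of endothelial cells in the Flt1 difference was not tested.

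Cd72, a receptor that binds Sema4d on lymphocytes, had values of 13.10, 13.01 and 12.73 in old libraries, against 11.62, 11.72 and 11.76 in young ones. It rose 2.37-fold (1.25 ± 0.14; limma, Benjamini-Hochberg adjusted p = 0.0013). Middle-aged libraries stood between, at 12.51, 12.31 and 11.99. Cd72 is known as a B cell gene, and 0 of 5 B cell markers were called by limma, with 2 of the 5 at an unadjusted p under 0.05. Of all tested genes 16.8% had such a p in old against young libraries. The B cell sum was 16.13 to 16.40 in old and 16.24 to 16.40 in young libraries.

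Tyrobp, the signalling adaptor of Trem2, had values of 16.21, 15.98 and 16.34 in old and 15.77, 15.71 and 15.57 in young libraries. It rose 1.41-fold (0.50 ± 0.10; limma, Benjamini-Hochberg adjusted p = 0.0331). Its call was lost when any 1 of 7 libraries was left out, old replicate 3 among them, where the difference was 0.42 to 0.54. The call was also lost with the replicate number as a block (limma adjusted p = 0.0624). Over 16 alternative fits, these included, Tyrobp was called in 6. Trem2 had a difference of 0.21 ± 0.08 and Vegfa 0.18 ± 0.06, neither called. L1cam, a co-receptor of Nrp1, had a difference of 0.58 ± 0.20 with old replicate 3, its highest library, and 0.29 without it, and was not called. Sema6d, Plxna1, Trem2 and Tyrobp thus had old minus young differences of -0.66, -0.05, 0.21 and 0.50.

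**Figure D5:**
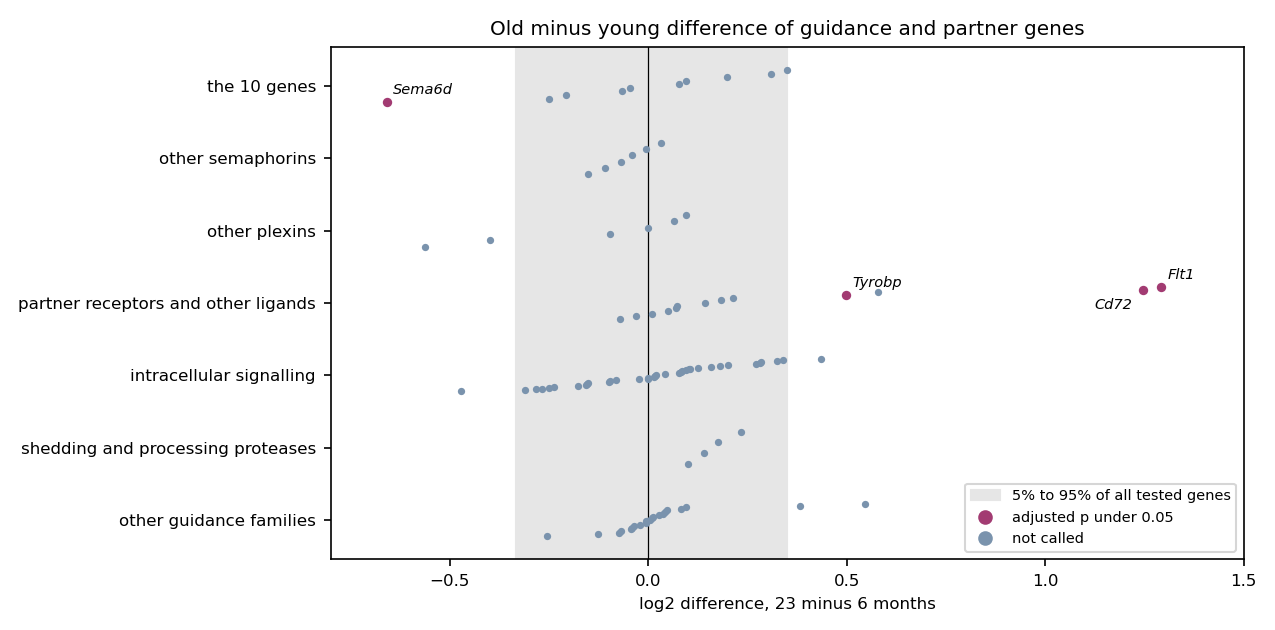
Old minus young log2 difference of each tested gene by list, with the 5% to 95% range of all tested genes shaded (-0.33 to 0.35). Magenta points were called at adjusted p under 0.05, and apart from Sema6d they are Flt1, Cd72 and Tyrobp, all among the partner genes.

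The other lists held no gene called by limma. Their median old minus young log2 differences were -0.05 for other semaphorins, -0.05 for other plexins, 0.02 for intracellular signalling, 0.16 for proteases and 0.00 for other guidance families. Of 6 other semaphorins tested, 0 were called in old against young libraries and 1 had an unadjusted p under 0.05. Over all tested genes 2.00% were called and 16.8% had such a p, and nothing is read from the counts of these lists. Sema6b had a difference of -0.11 ± 0.04, Sema4g -0.15 ± 0.10 and Sema5a -0.04 ± 0.03. Without old replicate 3 the difference of Sema4g was -0.07. Of 6 other plexins 0 were called and 2 had an unadjusted p under 0.05. Plxna4, a receptor of class 6 semaphorins, had a difference of -0.56 ± 0.19 and Plxnb3, the receptor of Sema5a, -0.40 ± 0.13, each with every old library below every young one. Plxnb1, a high-affinity receptor of Sema4d, had -0.10 ± 0.05 at a low level.

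Of 36 genes of intracellular signalling 0 were called by limma in old against young libraries and 6 had an unadjusted p under 0.05. The share of all tested genes with such a p was 16.8%, so nothing is read from this count or those of the lists that follow. Cfl1, encoding the actin-severing protein cofilin, had a difference of 0.43 ± 0.10 (adjusted p = 0.0555), and Mical3 had -0.47 ± 0.17. Of 4 proteases that shed or process semaphorins 0 were called and 1 had an unadjusted p under 0.05. Mmp14 had a difference of 0.23 ± 0.10, Adam17 0.18 ± 0.09 and Furin 0.14 ± 0.10. Of 21 genes of other guidance families (ephrins, slits, netrins and their receptors) 0 were called and 2 had an unadjusted p under 0.05. The ephrin gene Efna5 had a difference of 0.55 ± 0.19, the netrin receptor gene Neo1 -0.25 ± 0.10 and Ntn1 -0.07 ± 0.04. In middle-aged against young and in old against middle-aged libraries 0 of the 86 listed genes tested were called by limma. In each comparison 11 of the 86 had an unadjusted p under 0.05, where 11.4% and 10.2% of all tested genes did. Flt1 had a middle-aged minus young difference of 0.81 ± 0.14 (adjusted p = 0.0714) and Cd72 0.57 ± 0.14 (adjusted p = 0.177).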

How the data were processed

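Microglia were flow-sorted and their RNA went into a low-input sequencing kit, per the labels' protocols. The submitters' processing notes name mm10, DESeq2 1.16.1, STAR 2.5.3, cutadapt 1.13 and CASAVA, with no role or order. The authors deposited log2-scale values per library, whose transformation no source used here states. The authors' deposited comparison tables hold a mean signal, a log2 fold change, a test score and a p-value per gene. Differences of the log2 values were smaller in size than the authors' deposited fold changes for 10 of the 10 genes in old against young (Sema6d -0.66 against -1.23), 10 in middle-aged against young and 8 in old against middle-aged. Folds given here are therefore on the scale of the deposited values.

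Values were used as deposited. Genes at or above log2 of 10 (3.32) in at least 3 libraries were fitted with limma 3.58.1 in R 4.3.3, with the 3 ages as groups, a variance trend and Benjamini-Hochberg adjustment over 14955 genes at 0.05. An exact permutation test of 3 against 3 cannot go below 0.1. The fit was tested on simulated data. The 10 genes and all lists were chosen with earlier results of these data known. Named beyond the 10 genes are called list members, and per list up to 3 others with the smallest p in old against young, of which 1 is not reported here. Genes closest to Sema6d were taken among tested genes with a mean of at least log2 of 50, gene models and pseudogenes left out. Lists hold 128 other genes, of which 86 were tested. Exon lengths come from GENCODE M21 (GRCm38), which holds all 10 genes. Figures were drawn with matplotlib 3.10.9.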

Additional observations from a re-analysis of the deposited data

How the results depend on the processing

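The 30 old, middle-aged and young differences of the 10 genes each moved by less than 1 residual SD under all 16 alternatives, and 15 of these 480 values changed sign, all in differences that were not called. Leaving out 1 of 3 libraries cannot move a difference by more than 1 residual SD. Changing the filter, the variance prior, the replicate block or the ages fitted leaves the difference itself unchanged. The small moves were thus largely fixed in advance, and no stability is read from them. The count of the 10 genes called in old against young was 2 with library weights (Sema6d and Sema4b) and 0 to 1 when a library was left out. Sema6d was called in 12 of 16 alternatives and in 5 of the 9 that left out a library, with differences from -0.69 to -0.59. Flt1 and Cd72 were called in old against young under all 16 alternatives and Tyrobp in 6.

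Other listed genes called numbered 3, 11 and 1 with library weights in middle-aged against young, old against young and old against middle-aged, where the fit reported above gave 0, 3 and 0. Leaving out a library gave 0 to 1, 2 to 4 and 0 to 0, and the 1 was without old replicate 3. In the same order of comparisons, all genes called numbered 17, 299 and 26. They were 312, 1609 and 62 with library weights, 10, 170 and 9 with no filter on low values, and 4 to 49, 83 to 322 and 3 to 23 when a library was left out. With only the libraries of both ages compared they were 153 in old against young and 0 in old against middle-aged, where limma then has fewer samples and 1008 genes had an unadjusted p under 0.05. With no variance trend, 3 were called in old against middle-aged.

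Replicate numbers are shared by the ages, but same-numbered libraries did not deviate together (r of -0.24 to 0.23 over genes in 9 pairs). With the replicate number as a block, 11, 185 and 14 of all genes were called, Sema6d stayed called and Tyrobp did not. The cause of these moves was not tested. Depth is unknown, and values of low genes such as Plxna1 lay close together in the deposited table, with a residual SD at percentile 9.55 of the tested genes.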
